A study of Mus musculus with 20 samples.

Results

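Immediate-early genes and nerve injury genes were followed in dorsal root ganglia, which house the cell bodies of the body's sensory neurons, in mice with and without Prdm12 deletion and with and without a formalin injection. The set holds 36 of the 55416 genes counted: 20 immediate-early genes and 16 genes known from injured sensory neurons. Members were taken by gene symbol from a list of names, which was drawn up with earlier results of these data known.

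Immediate-early genes are transcribed within minutes of synaptic input, injury or growth factor signals, without new protein synthesis. Fos and Jun family proteins pair to form the transcription factor AP-1, EGR and NR4A proteins are further early transcription factors, and Dusp1 and Btg2 belong to the feedback that ends the signal. After a peripheral axon is cut, sensory neurons raise a slower programme led by Atf3, Jun and Sox11, with growth proteins such as Gap43 and Sprr1a and secreted factors such as Bdnf and Csf1. Formalin is an irritant that is injected to cause inflammatory pain, and Prdm12 encodes a transcriptional regulator needed for pain-sensing neurons to form.

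PolyA RNA was sequenced from lumbar ganglia (L3 to L5) of 10 adult C57Bl6 mice, 5 female and 5 male, with a kit that does not mark strand. Each mouse gave a formalin library and a noninjected library, matched by the animal number in the deposited names. Per the labels, control mice were P12 Fl/Fl TAM and icKO mice were AdvCreERT2; P12 Fl/Fl TAM, so both groups carried floxed Prdm12 alleles and had received tamoxifen, 1 month before by the design text. That text names a Rosa26CreERT2 driver instead of AdvCreERT2; the first acts in most cell types and the second in peripheral sensory neurons. Which exons were floxed, which side was dissected and how long after formalin were not given in the sources used here. No vehicle injection is labelled, so formalin cannot be told apart from the injection itself.

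The genotype word in the deposited names, icKO or Contol, goes against the title for 4 animals: the mice titled control 1 and control 4 carry the icKO word, and those titled icKO 2 and icKO 3 carry the Contol word. Prdm12, the targeted gene, was at 98.8, 76.9 and 96.6 counts per 1000000 (CPM) in noninjected control 2, 3 and 5, while icKO 2 and 3 had 74.7 and 81.3 CPM; the icKO-named control 1 and 4 had 23.1 and 38.1 CPM, and icKO 1, 4 and 5 had 23.5, 22.1 and 23.3 CPM. With formalin it was at 72.9 to 114 CPM in the 5 Contol-named libraries and at 14.4 to 28.1 CPM in the 4 icKO-named ones. It did not overlap between the name groups and did between the title groups. Groups below follow the deposited word, as "Contol-named" (3 females, 2 males) and "icKO-named" (2 females, 3 males), and animals keep their title. Values by title, and for the 6 animals whose records agree (control 2, 3 and 5; icKO 1, 4 and 5), stand beside the calls among the 36 genes. The 19 libraries used held 11763893 to 22392635 counts; the icKO 1 formalin library held 2829 and was left out, which leaves 9 pairs, 5 Contol-named and 4 icKO-named.

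The 8 neuron markers were Rbfox3, Snap25, Tubb3, Uchl1, Prph, Isl1, Avil and Scn9a. Avil is the gene that the Adv driver is named after, and no sum without it was made. All 8 were detected in every library, and their summed level was 6500.1 to 11255.5 CPM. The lowest of these sums came from icKO 5 formalin, a library with 1946.6 CPM of 8 skeletal muscle markers and 6109.3 CPM of 6 fibroblast markers. In bulk tissue, fewer cells of a type and less RNA per cell cannot be told apart.

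Levels differed widely between the genes when divided by exon length (CPM per kb, median of 19 libraries). The growth cone protein gene Gap43 was highest at 153 CPM per kb, followed by the small heat shock protein gene Hspb1 at 49.8. Among transcription factors, Klf6 stood at 18.8, Jun at 15.8 and Jund at 11.4 CPM per kb, all above the median of Fos at 3.18 and Atf3 at 5.20. Of the 35 pairs of neighbours in this order 33 overlapped over libraries; Gap43 lay clear of Hspb1, and Hspb1 of Klf6. At the low end, the peptide gene Vip was at 0.0151, the AP-1 gene Fosl1 at 0.0275, Egr4 at 0.0545, the lectin gene Reg3b at 0.0546, the cytokine gene Il6 at 0.115 and the peptide gene Npy at 0.616 CPM per kb. These 6 had too few counts for most tests. The other 30 members passed the filter on low counts in every comparison, and Il6 and Npy passed it over animal totals only.

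**Figure D1:**
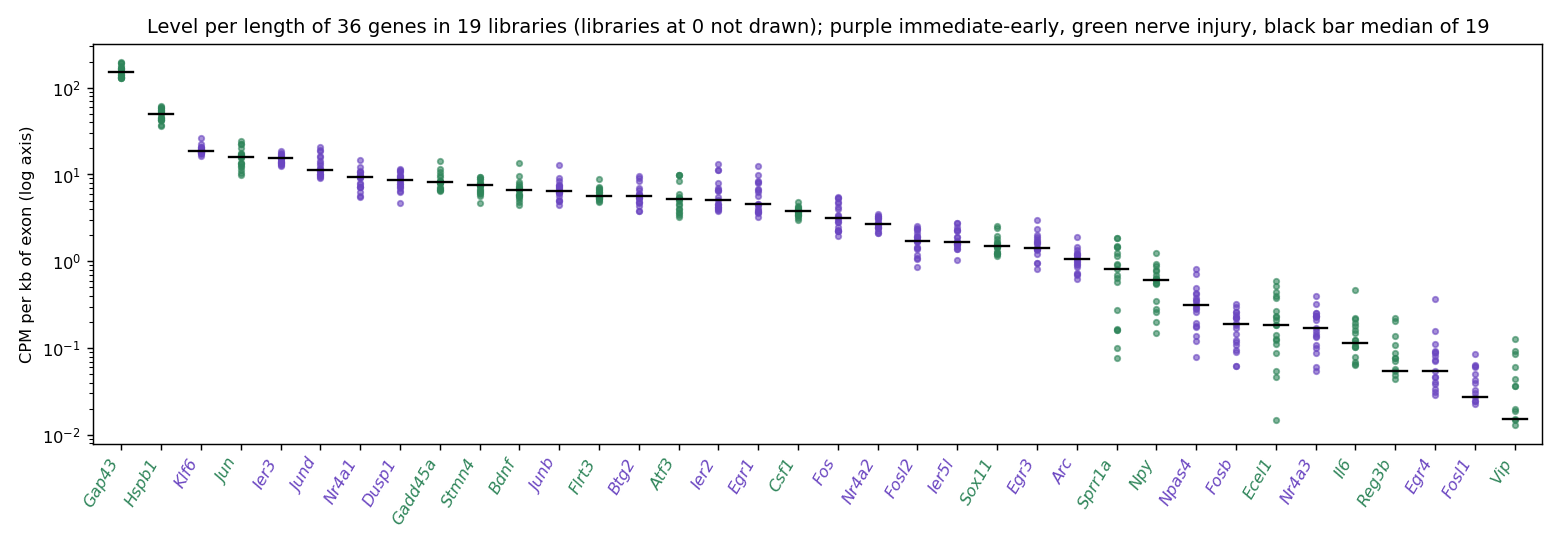
Level of each of the 36 genes in CPM per kb of exon (log axis), 1 point per library, with the median of 19 libraries as a black bar and libraries at 0 not drawn. Gap43 and Hspb1 lie above the rest, and Vip, Fosl1, Egr4 and Reg3b lie lowest.

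Spread over libraries also differed between genes. Ier3, a survival gene of the early response, varied least, with its highest library at 1.47 times its lowest, and Gap43 varied 1.54-fold and Klf6 1.62-fold. The neuronal activity factor Npas4 varied 10.4-fold, Nr4a3 7.32-fold and Fosb 5.17-fold, all at medians of 1.03 to 1.28 CPM. Among better covered genes the widest were Egr1 at 3.87-fold, Egr3 at 3.70-fold and Ier2 at 3.50-fold.

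Promoter sequence is shown for the genes that carry the comparisons below, from RefSeq on GRCm38.p6, a build other than the GRCm39 used for the counts. Each run is the 250 bases before the annotated start, 5′ to 3′ in the direction of the gene. A RefSeq window was matched for 29 of the 36 members, with 7 for Bdnf. Fosl1, Egr1, Egr3, Arc, Ier2, Gap43 and Stmn4 had none and were not searched. Capitals mark letter matches, on either strand, to TGACATCA (the AP-1-like site known from the Jun promoter), to TGACGTCA (the cyclic AMP response element, CRE) or to CCAAT, and no capital runs overlap. Jun, Jund and Dusp1 are shown for their genotype or formalin values, Sox11 and Flrt3 because they share the letters of Jun.
Jun (chr4:95052223-95052472, minus strand): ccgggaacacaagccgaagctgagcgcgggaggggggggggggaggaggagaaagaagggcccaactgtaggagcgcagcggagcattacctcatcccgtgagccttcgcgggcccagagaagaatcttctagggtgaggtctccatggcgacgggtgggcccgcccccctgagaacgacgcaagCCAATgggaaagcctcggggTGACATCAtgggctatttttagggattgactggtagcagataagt
Sox11 (chr12:27342719-27342968, minus strand): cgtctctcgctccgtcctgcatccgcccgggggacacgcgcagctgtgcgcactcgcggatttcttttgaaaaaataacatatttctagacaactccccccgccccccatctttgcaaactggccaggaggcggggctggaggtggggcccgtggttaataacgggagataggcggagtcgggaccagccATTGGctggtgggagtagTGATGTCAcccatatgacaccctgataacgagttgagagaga
Flrt3 (chr2:140671477-140671726, minus strand): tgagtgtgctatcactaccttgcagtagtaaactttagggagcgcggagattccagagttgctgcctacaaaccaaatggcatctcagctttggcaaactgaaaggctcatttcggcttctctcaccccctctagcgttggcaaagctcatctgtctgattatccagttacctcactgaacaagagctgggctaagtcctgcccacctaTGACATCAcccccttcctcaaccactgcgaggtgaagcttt
Jund (chr8:70697489-70697738, plus strand): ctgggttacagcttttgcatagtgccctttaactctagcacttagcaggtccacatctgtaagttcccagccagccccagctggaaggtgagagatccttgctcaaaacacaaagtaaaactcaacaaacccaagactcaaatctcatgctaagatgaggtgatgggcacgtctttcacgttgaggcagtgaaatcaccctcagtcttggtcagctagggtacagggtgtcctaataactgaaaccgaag
Dusp1 (chr17:26508473-26508722, minus strand): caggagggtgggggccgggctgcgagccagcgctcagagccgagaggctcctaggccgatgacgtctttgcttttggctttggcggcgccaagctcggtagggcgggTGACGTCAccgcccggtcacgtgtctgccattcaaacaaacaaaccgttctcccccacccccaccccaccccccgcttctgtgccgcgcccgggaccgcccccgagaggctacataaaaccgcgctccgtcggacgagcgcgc

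In Jun the AP-1-like letters lie 45 to 38 bases before the start, in Sox11 (on the other strand) 42 to 35 and in Flrt3 41 to 34. In Klf6 and Sprr1a, whose runs are not shown, they lie farther off, at 119 to 112 and 207 to 200, so the position was not shared by all matches. The 8 letters were searched because they are known from Jun, so the match there is by choice. Counting genes with at least 1 window that holds them, they occurred in 4 of 14 nerve injury members, with Sprr1a as the fourth, in 1 of 15 immediate-early members (Klf6), and in 3.41% of 27025 genes (2.84% of 32536 distinct windows). The CRE occurred in Dusp1 and Btg2, 2 of 15 immediate-early members, against 1.77% of genes (1.56% of windows). EGR letters GCGNGGGCG occurred in 5 of 15 immediate-early members (Btg2, Fosb, Fosl2, Nr4a1 and Nr4a2), in 0 of 14 nerve injury members and in 5.33% of genes (4.74% of windows). The canonical AP-1 letters TGANTCA occurred in 3 of 14 nerve injury members (Bdnf, Il6 and Sprr1a), in 0 of 15 immediate-early members and in 7.82% of genes (6.73% of windows). The CArG box occurred in 0 of 15 immediate-early and 0 of 14 nerve injury members and in 1.62% of genes (1.48% of windows). The immediate-early members Fosl1, Egr1, Egr3, Arc and Ier2 had no window, so a CArG box there was not tested. Sequence outside the windows was not searched for any member, Fos included. CCAAT occurred in 5 of 15 and 7 of 14 members and in 37.5% of genes (33.8% of windows). A letter match is no measured binding site.

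The comparison of genotypes in the noninjected ganglia asked which of these genes differ there. Every mouse also gave a formalin library, so no mouse without formalin was measured. An effect of formalin on the noninjected ganglia was not tested. Jun and Jund, both AP-1 genes, were higher in icKO-named than in Contol-named animals, and so was Stmn4, a stathmin-family gene of microtubule dynamics. No member was lower. The 30 tested members had a median log2 fold of -0.07. The 3 of 30 called members stand beside 1254 of 16756 genes called in all (7.48%), 4.61% higher and 2.88% lower, so the members' share was near that of all genes. The count of all genes moved from 1254 to between 184 (without control 3) and 2050 (without control 1) when 1 animal was left out; it was 369, 366, 611 and 610 without icKO 1, 2, 3 and 4 and 537 without control 2.

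Jun, the AP-1 subunit that is also a leading injury factor, was at 35.5, 41.9 and 38.7 CPM in Contol-named control 2, 3 and 5, while icKO 2 and 3 had 33.2 and 39.5 CPM. Of the icKO-named animals, control 1 and 4 had 54.9 and 56.3 CPM, and icKO 1, 4 and 5 had 71.5, 64.4 and 77.7 CPM. Every icKO-named library lay above every Contol-named one. The means were 65.0 ± 9.74 and 37.8 ± 3.41 CPM (SD, n = 5 and 5), a log2 fold of 0.76 (SE 0.10; quasi-likelihood test in edgeR, Benjamini-Hochberg adjusted p = 0.0021).

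Jund, the broadly expressed AP-1 subunit, was at 17.1, 19.7 and 15.1 CPM in control 2, 3 and 5, while icKO 2 and 3 had 19.1 and 16.5 CPM, all of them Contol-named. In icKO-named control 1 and 4 it was at 21.5 and 34.2 CPM and in icKO 1, 4 and 5 at 30.8, 27.5 and 32.3 CPM. These groups did not overlap either, although control 1 lay close to the Contol-named range. The log2 fold was 0.72 (SE 0.13; edgeR, adjusted p = 0.0088).

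Stmn4 was at 9.07 to 14.3 CPM in Contol-named and 14.4 to 18 CPM in icKO-named animals, so that the groups met without overlapping (log2 fold 0.47, SE 0.13; edgeR, adjusted p = 0.0458). Jun, Jund and Stmn4 were the 3 members whose groups did not overlap; icKO-named animals were higher without overlap in 4.44% of all genes. The call of Stmn4 was lost whichever animal was left out (adjusted p = 0.0535 to 0.109). Jun and Jund kept theirs in each of those fits, at adjusted p = 0.00111 to 0.0117 for Jun and 0.00178 to 0.0393 for Jund.

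Grouped by title, none of the 3 passed: the log2 folds were 0.36 for Jun, 0.28 for Jund and 0.00 for Stmn4 (edgeR, adjusted p = 0.732, 0.769 and 0.997), and 0 genes passed in all. In the 6 animals whose records agree, Jun was at 0.88 and Jund at 0.81 (edgeR, adjusted p = 0.000343 and 0.00227), and Stmn4 was at 0.39 and lost its call (adjusted p = 0.184). That comparison of 3 with 3 called 6 members: Dusp1 was also higher (0.47), and Egr3 (-1.06), Nr4a1 (-0.63) and the endopeptidase gene Ecel1 (-1.41) were lower, where 1535 of 16548 genes passed. Over all 10 animals these 4 stood at 0.41, -0.56, -0.39 and -0.72 and did not pass (edgeR, adjusted p = 0.0835, 0.178, 0.204 and 0.243). DESeq2 called Dusp1 there (0.41, adjusted p = 0.0403), where it called 2055 of 16756 genes in all. The edgeR fit without icKO 2 called Dusp1 too (0.52, adjusted p = 0.0322).

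Cell type markers moved beside these values. The summed neuron markers were at 7644.8 to 9220.8 CPM in Contol-named and 9145.3 to 11255.5 CPM in icKO-named noninjected libraries, with 8 of 8 folds positive (median log2 fold 0.26). Schwann cell markers were negative in 6 of 7, with 2 of them passing as lower (4423.2 to 5531.8 against 3223.5 to 4936.3 CPM), and 1 of 6 satellite glia markers passed as lower (3752 to 5152.1 against 3850.4 to 4723.7 CPM). Neutrophil markers were positive in 7 of 7 (231 to 604 against 315 to 1190.3 CPM) and red cell markers in 6 of 6 (123 to 318 against 203 to 738 CPM), while 8 of 8 macrophage markers were negative (169 to 306 against 149 to 223 CPM); none of the neuron, neutrophil, red cell and macrophage markers passed. Their part in the Jun and Jund values was not tested.

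**Figure D2:**
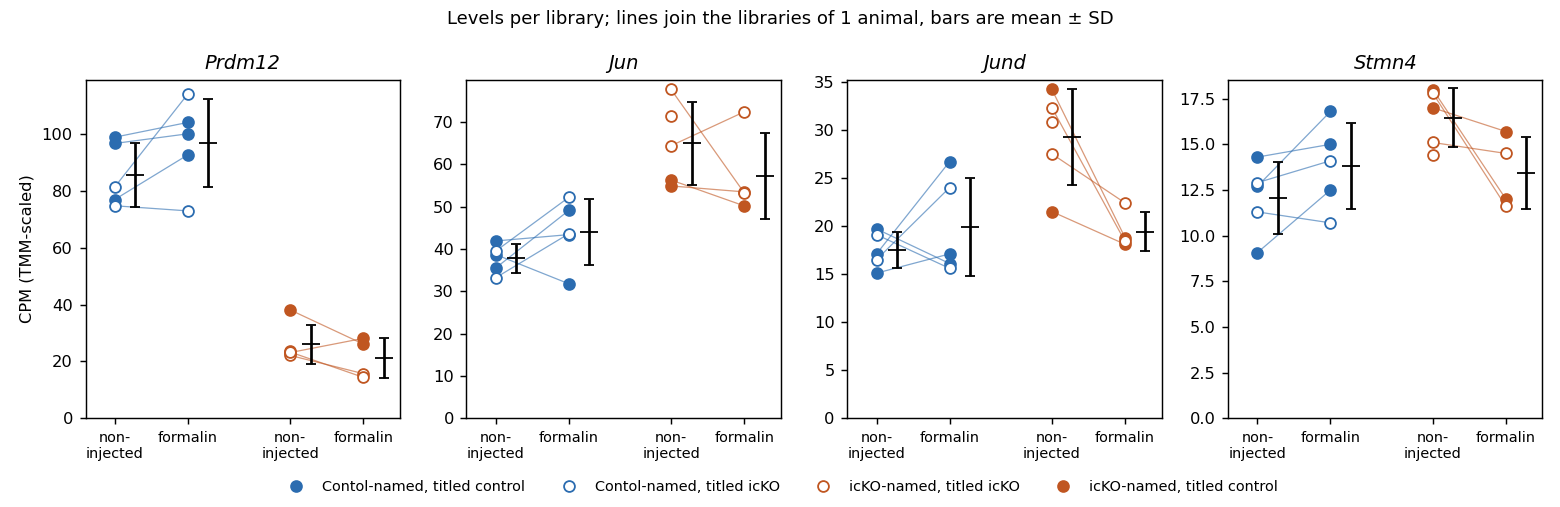
CPM of Prdm12, Jun, Jund and Stmn4 in each of the 19 libraries, Contol-named in blue and icKO-named in orange; filled points were titled control and open points icKO, lines join the libraries of 1 animal and bars are the mean ± SD. Noninjected Jun lies at 33.2 to 41.9 CPM in Contol-named and 54.9 to 77.7 CPM in icKO-named animals.

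Apart from Jun and Jund, no AP-1, EGR or NR4A member passed over all 10 animals. Of those tested, Junb had a higher mean in icKO-named animals (18.9 ± 6.23 against 15.9 ± 3.46 CPM; SD, n = 5 and 5). The rest had a lower mean there, such as Egr1 (21.7 ± 9.3 against 33.6 ± 14.6 CPM) and Nr4a1 (28.5 ± 7.37 against 38.5 ± 7.48 CPM). Fos was at 5.42 to 12.7 CPM (median 11.1) in Contol-named and 4.6 to 12.7 CPM (median 7.1) in icKO-named noninjected libraries (log2 fold -0.41, SE 0.29; edgeR, adjusted p = 0.4). Egr1 was at 18.6, 56.7 and 25.4 CPM in control 2, 3 and 5, at 36.9 CPM in icKO 2, at 30.7 CPM in icKO 3, and at 16.3, 38.1, 20.1, 17.3 and 16.6 CPM in icKO-named control 1, control 4 and icKO 1, 4 and 5. Both genes overlapped between the groups. Of the 18 tested immediate-early members 12 had a negative fold (median -0.17), and of the 12 tested injury members 6 did (median -0.01).

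Among the injury genes, Sprr1a, a small proline-rich protein that promotes axon growth, was at 0.923 ± 0.279 CPM in Contol-named and 0.316 ± 0.291 CPM in icKO-named animals (SD, n = 5 and 5; log2 fold -1.51, SE 0.50; edgeR, adjusted p = 0.0796). Atf3, the injury factor of the CREB family, was at 7.42, 10.7, 21.0, 6.91 and 7.67 CPM in Contol-named control 2, 3 and 5 and icKO 2 and 3. In icKO-named animals it lay between 8.01 and 9.88 CPM, inside the range of the other group, which control 5 widened. Gap43 (log2 fold -0.09), Sox11 (-0.05), Hspb1 (0.03) and the macrophage growth factor gene Csf1 (0.07) did not pass.

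Further genes of both kinds, not members, were counted in the same fit. Of 39 other immediate-early genes, the pentraxin gene Nptx2 was higher (log2 fold 0.47) and the phosphatase gene Dusp6 (-0.39) and Tiparp (-0.29) were lower. This share was near the 7.48% of all genes called in that fit. Of 38 other nerve injury and regrowth genes tested, 6 were higher and 1 was lower, beside 4.61% and 2.88% of all genes. Among them Gpr151, a receptor gene raised by axotomy, was at 1.18, Basp1 at 0.44, Rab3a at 0.47, Smad1 at 0.40, Stat3 at 0.41 and the growth factor gene Fgf2 at -0.37. By title, none of these genes passed. The median was 0.01 over the first of these lists and 0.08 over the second.

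After formalin the same comparison, 4 icKO-named against 5 Contol-named animals, called 0 of 30 members, where 31 of 17515 genes passed (0.177%). At an unadjusted p under 0.05 there were 6 members with a positive and 2 with a negative fold, beside 12.2% of all genes. Jun was at 49.1, 43.4 and 31.8 CPM in control 2, 3 and 5, at 43.6 CPM in icKO 2, at 52.2 CPM in icKO 3, and at 53.5, 50.2, 72.4 and 53.3 CPM in icKO-named control 1, control 4, icKO 4 and icKO 5. The groups now overlapped, with a log2 fold of 0.46 (SE 0.16; edgeR, adjusted p = 0.281). A call in one set and none in the other is no test of a difference between them. In the direct comparison of formalin effects below, Jun did not pass.

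Jund was at 15.6 to 26.7 CPM in Contol-named and 18.1 to 22.4 CPM in icKO-named formalin libraries, a log2 fold of 0.05 (SE 0.19). The groups overlapped throughout. Fosl2, an AP-1 gene, was at 10.2 to 18.6 CPM in Contol-named and at 18.8, 23.2, 24.9 and 22.2 CPM in icKO-named control 1, control 4, icKO 4 and icKO 5 (log2 fold 0.77, SE 0.18; edgeR, adjusted p = 0.145).

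Ecel1 was at 0.937, 1.82 and 2.09 CPM in control 2, 3 and 5, and icKO 2 and 3 had 0.648 and 0.804 CPM, against 0.437, 0.394, 0.0514 and 0.311 CPM in the icKO-named group (log2 fold -2.15, SE 0.49; edgeR, adjusted p = 0.129). Hspb1 was at 51.4 to 57.4 against 37.3 to 47.3 CPM (-0.37, SE 0.09), and Klf6 at 71.6 to 81.5 against 85.5 to 116 CPM (0.27, SE 0.10). In these 4 genes the groups did not overlap, Fosl2 and Klf6 being higher and Ecel1 and Hspb1 lower in icKO-named animals; of all genes, 3.02% and 2.69% did so. DESeq2 called Ecel1, Fosl2 and Hspb1 (adjusted p = 0.0256, 0.00548 and 0.024), where it called 640 of 17515 genes in all. The edgeR fit without control 1 called them too, with log2 folds of -2.96, 1.11 and -0.51 (adjusted p = 0.0222, 0.018 and 0.0332). That fit also called Btg2 (1.08, adjusted p = 0.0241) and moved the count of all called genes from 31 to 683; it was 13 to 20 without control 2, 3, 4 or 5 or icKO 3. The 6 agreeing animals, of which 5 have a formalin library, called 3 members, where 1035 of 17130 genes passed. These members were Ecel1 at -3.37, Btg2 at 1.14 and Fosl2 at 1.13 (edgeR, adjusted p = 0.0266, 0.0172 and 0.0145). By title they were at -1.27, 0.41 and 0.30 and did not pass. Beside these values stood the neutrophil markers, at 183 to 856 CPM in Contol-named and 724 to 3344.1 CPM in icKO-named formalin libraries, the red cell markers, at 124 to 291 and 337 to 1627.1 CPM without overlap, and the skeletal muscle markers, at 12 to 29.8 and 13 to 1946.6 CPM. Fibroblast markers were positive in 6 of 6 (1375.1 to 2391.1 against 1602.6 to 6109.3 CPM) and macrophage markers in 8 of 8 (123 to 234 against 148 to 442 CPM). Of the icKO-named libraries, control 1 had the lowest muscle, neutrophil and fibroblast sums, and control 4 the lowest red cell sum. The fit without control 1 thus rested on icKO-named libraries with more muscle, neutrophil and fibroblast markers. The part of all these markers was not tested.

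Over animal totals, which sum the libraries of each mouse (icKO 1 gave its noninjected library alone), Jun was the member that passed of 32 tested (log2 fold 0.62, SE 0.10; edgeR, adjusted p = 0.0154), beside 204 of 18787 genes (1.09%; 0.601% higher). Its call was lost without control 3 or control 5 (adjusted p = 0.0535 and 0.0729) and by title (0.36, adjusted p = 0.555). In the 6 agreeing animals it was 0.78 (adjusted p = 0.0256). Without the icKO 5 formalin library, a fit added after the data were seen, it was 0.67 (adjusted p = 0.0217), and 342 genes passed. The count of genes was 78 to 128 without control 2, 3 or 5 or icKO 2, 3 or 4. Jund was at 0.47, Ecel1 at -1.33 and Dusp1 at 0.43 (edgeR, adjusted p = 0.108, 0.109 and 0.143). DESeq2 called these 3 (adjusted p = 0.0237, 0.0474 and 0.0412), where it called 804 of 18787 genes in all. The 6 agreeing animals called Ecel1 at -2.22 (edgeR, adjusted p = 0.0473), where 165 of 18440 genes passed.

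**Figure D3:**
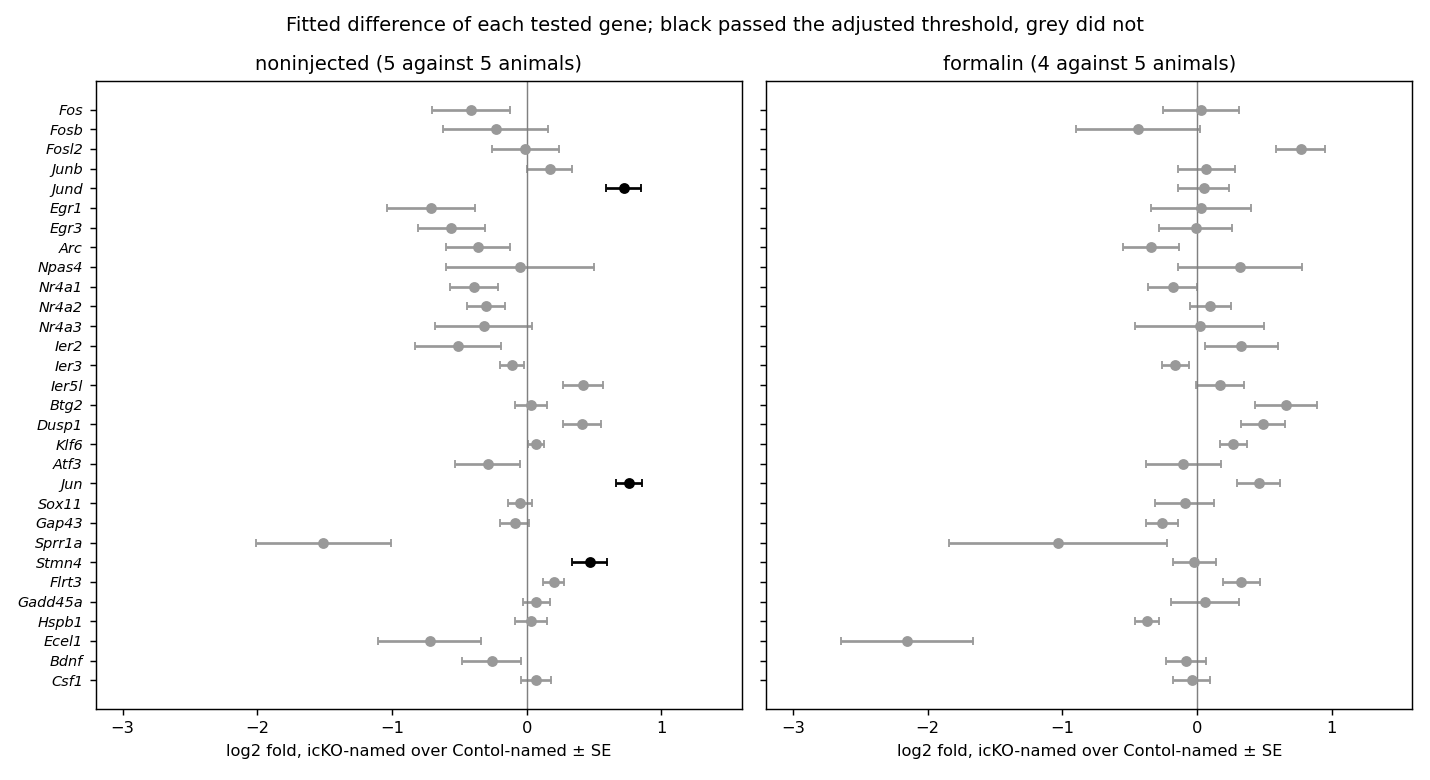
Log2 fold of icKO-named over Contol-named animals with its SE for the 30 tested members, noninjected on the left and formalin on the right; black points passed an adjusted p of 0.05. Jun, Jund and Stmn4 are black among noninjected libraries and no gene is black after formalin.

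The formalin comparison within animals asked whether the injection moved these genes, and does not rest on either genotype record. Over the 9 pairs 0 of 18434 genes passed (0.0%), none of the 30 tested members among them, whose median log2 fold was -0.04. At an unadjusted p under 0.05 there were 7 members, 4 immediate-early genes with a negative and 3 injury genes with a positive fold, beside 2.81% of all genes; DESeq2 called 1 gene in all. Of the immediate-early members 6 of 18 had a positive fold (median -0.14), of the injury members 8 of 12 (median 0.04), and of all genes 49.9%. Among the 39 other immediate-early genes 30 were negative (median -0.08), with the matrix protein gene Ccn1 at -0.46.

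Dusp1, the phosphatase that switches off MAP kinases, had formalin minus noninjected differences of -0.29, 0.02, -0.23, -0.23 and -0.40 on the log2 scale in control 1 to 5 and of -0.34, -0.25, -0.23 and -0.25 in icKO 2 to 5. It was lower in 8 of 9 animals, with control 2 as the exception (log2 fold -0.24, SE 0.05; edgeR, unadjusted p = 0.00054, adjusted p = 1.0). Ier5l had differences of -0.55, 0.17, -0.89, -0.80 and -0.05 in control 1 to 5 and of -0.73, -0.36, -0.73 and -0.65 in icKO 2 to 5, again lower in 8 of 9 (log2 fold -0.52, SE 0.12). The orphan nuclear receptor gene Nr4a1 was lower in 7 of 9 (-0.22, SE 0.06) and Junb in 7 of 9 (-0.30, SE 0.10). None of these passed after adjustment. How many of all genes lay on one side, higher or lower, in 7 or 8 of 9 animals was not counted.

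Atf3 had the opposite sign. Its differences were 0.39, 1.5, 0.77, 0.36 and -0.91 in control 1 to 5 and 0.75, 0.56, 0.47 and 1.39 in icKO 2 to 5 on the log2 scale. It was higher with formalin in 8 of 9 animals, and in control 5 its noninjected library was already at 21.0 CPM, as high as the highest formalin libraries (21.0 and 21.1 CPM in control 2 and icKO 5). The log2 fold was 0.59 (SE 0.20; edgeR, adjusted p = 1.0).

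Sox11, a transcription factor of developing and regrowing neurons, was higher in 8 of 9 animals too (0.27, SE 0.10), and Bdnf, a neurotrophin gene, in 7 of 9 (0.21, SE 0.14). Bdnf was not among the 3 injury genes with an unadjusted p under 0.05. For Atf3, Sox11 and Bdnf alike, control 5 had a negative difference, of -0.91, -0.16 and -0.89. Gap43 was higher in 7 of 9, by 0.22 at most.

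Within the 5 Contol-named animals 0 of 17757 genes passed (0.0%; DESeq2 called 49, Egr1 among them at adjusted p = 0.0348), and 0 members in edgeR. At an unadjusted p under 0.05, 6 members had a negative and 1 a positive fold, against 5.25% and 1.93% of all genes. Egr1 had log2 differences of -0.11, -0.66 and -0.79 in control 2, 3 and 5 and of -0.30 and -0.58 in icKO 2 and 3. Fos had differences of -0.03, -0.36, -0.82, -0.47 and -0.73 in the same order, and the antiproliferative gene Btg2 of -0.15, -0.23, -0.65, -0.04 and -0.51. All 3 were lower in 5 of 5 animals, while Gap43 and Ecel1 were higher in 5 of 5. The share of all genes on one side in 5 of 5 was not counted. Fitted log2 folds were -0.49 for Egr1 (SE 0.11; edgeR, adjusted p = 0.371), -0.49 for Fos (SE 0.16) and -0.31 for Btg2 (SE 0.18). In the same animals 7 of 7 Schwann cell markers (median -0.33) and 5 of 6 fibroblast markers (median of 6 -0.47) had a negative fold at an unadjusted p under 0.05; their part was not tested.

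Within the 4 icKO-named animals 0 genes passed as well (0.0%; DESeq2 called 263, Jund among them at adjusted p = 0.0492, and edgeR called 1992 without control 1). At an unadjusted p under 0.05, 3 members had a positive and 7 a negative fold, against 9.18% and 9.78% of all genes. Egr1 had differences of 0.03, 0.23, 0.69 and 0.32 in control 1, control 4, icKO 4 and icKO 5 (log2 fold 0.31, SE 0.12). Jund had differences of -0.25, -0.86, -0.29 and -0.81 in the same animals (-0.56, SE 0.17; edgeR, adjusted p = 0.188). Ecel1 had differences of -0.03, -1.69, -2.70 and -1.18 (-1.26, SE 0.40; edgeR, adjusted p = 0.188). In these animals 8 of 8 skeletal muscle markers had a positive fold (median 3.34) and 7 of 8 neuron markers a negative one (median -0.30); their part was not tested.

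The formalin effect itself was then compared between the name groups. No gene passed (0.0% of 17757; 22.2% at an unadjusted p under 0.05), and 0 members. Egr1 had a difference of 0.80 on the log2 scale (SE 0.16; edgeR, adjusted p = 0.09), Ier2, an early response gene, of 0.81 (SE 0.22; adjusted p = 0.107), Fos of 0.59 (SE 0.24; adjusted p = 0.181) and Btg2 of 0.63 (SE 0.26; adjusted p = 0.188). Ecel1 was at -1.76 (SE 0.50; adjusted p = 0.109), Jund at -0.72 (SE 0.22; adjusted p = 0.121) and Stmn4 at -0.53 (SE 0.17; adjusted p = 0.119). Jun lay between -0.48 and -0.23 when 1 animal at a time was left out (edgeR, adjusted p = 0.138 to 0.534).

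In Egr1 the change of every Contol-named animal lay below that of every icKO-named animal, as in 3.06% of all genes, and in Ecel1 above, as in 3.33%. DESeq2 called Egr1, Ier2 and Jund (adjusted p = 0.00296, 0.0417 and 0.0441), and called 774 genes. Without control 1, edgeR called 2524 genes and 9 members, among them Egr1 (0.90, adjusted p = 0.00637), Fos (0.79, adjusted p = 0.0333) and Ecel1 (-2.24, adjusted p = 0.0133). Beside this difference, all 8 skeletal muscle markers (median 3.93), 8 of 8 macrophage, 7 of 7 neutrophil and 6 of 6 fibroblast markers had positive folds, and 8 of 8 neuron markers had negative ones (median -0.41). Of the icKO-named formalin libraries, control 1 had the lowest muscle (13 CPM), neutrophil (724 CPM) and fibroblast (1602.6 CPM) sums, though not the lowest red cell sum. The fit without control 1 thus rested on icKO-named libraries with more muscle, neutrophil and fibroblast markers. The part of all these markers was not tested.

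**Figure D4:**
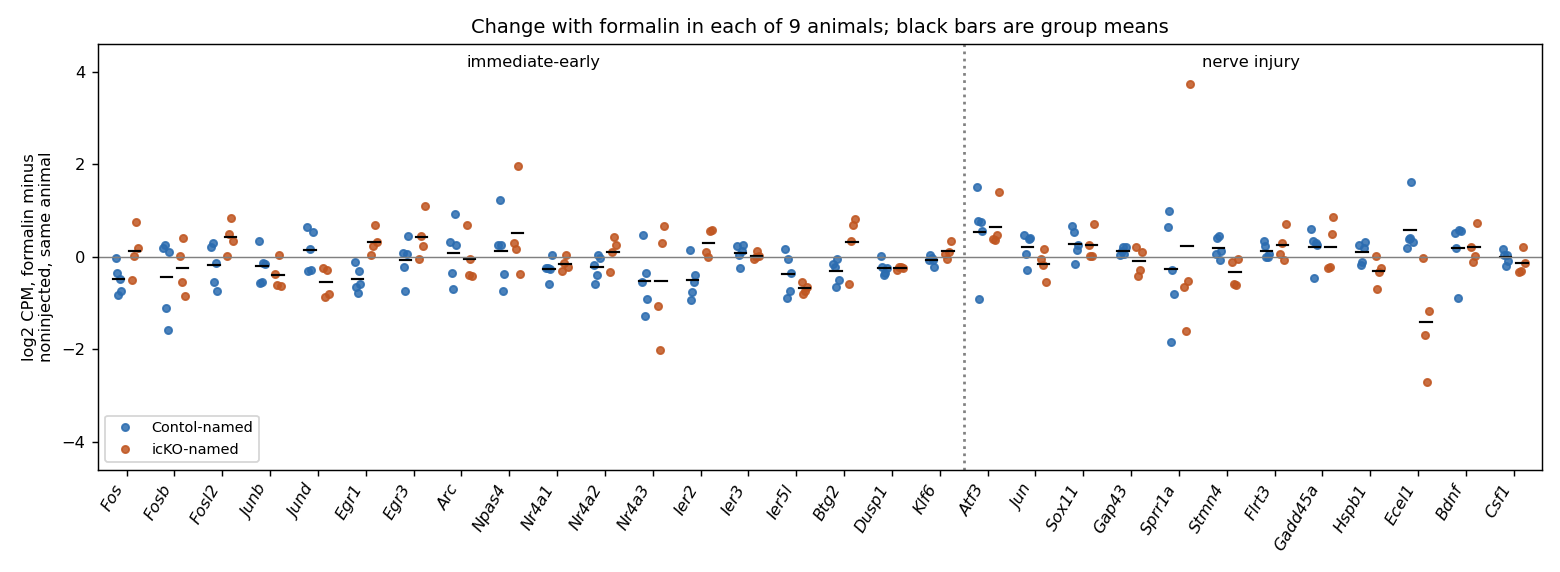
Log2 CPM of the formalin library minus that of the noninjected library of the same animal, 1 point per animal, for the 30 tested members; blue is Contol-named (5 animals), orange icKO-named (4 animals) and black bars are group means. Egr1 is below 0 in all Contol-named and above 0 in all icKO-named animals, and Dusp1 lies just below 0 in 8 of 9.

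Fos, Egr1 and Ier2 were high in the same animals. Among the 10 noninjected libraries, log2 CPM of Fos and Egr1 correlated at Pearson's r = 0.89 (permutation p = 0.00089, adjusted p = 0.0258 over 29 genes) and Spearman's rho = 0.84 (permutation p = 0.00364, adjusted p = 0.106), and r was 0.92 without the 2 animals farthest from the median of Fos. Among the 9 formalin libraries, r was 0.98 (exact permutation p = 8.27e-06, adjusted p = 0.00024) and rho 0.98 (exact permutation p = 4.96e-05, adjusted p = 0.00144), and r was 0.97 without 2 animals. For Fos and Ier2, r was 0.80 (permutation p = 0.00584, adjusted p = 0.0847; rho 0.78, permutation p = 0.0107, adjusted p = 0.156) noninjected and 0.88 (exact permutation p = 0.00213, adjusted p = 0.0308; rho 0.83, exact permutation p = 0.00827, adjusted p = 0.12) with formalin, the latter falling to 0.67 without 2 animals. No other member passed with Fos in either set. Jun had r = -0.46 with Fos noninjected (permutation p = 0.171, adjusted p = 0.62; rho -0.33, permutation p = 0.348, adjusted p = 0.651; r = -0.73 without 2 animals) and r = 0.17 with formalin (exact permutation p = 0.673, adjusted p = 0.929; rho -0.03, exact permutation p = 0.948, adjusted p = 0.982; r = 0.45 without 2 animals). Name groups of 4 or 5 were too small for correlations of their own.

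The highest noninjected levels of this trio came from 2 male animals of different name groups: control 3 (Fos 12.7, Egr1 56.7, Ier2 20.3 CPM) and control 4 (12.7, 38.1 and 17 CPM). With formalin, control 4 was again highest, at 12.8 CPM of Fos, 44.8 of Egr1 and 17.1 of Ier2.

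**Figure D5:**
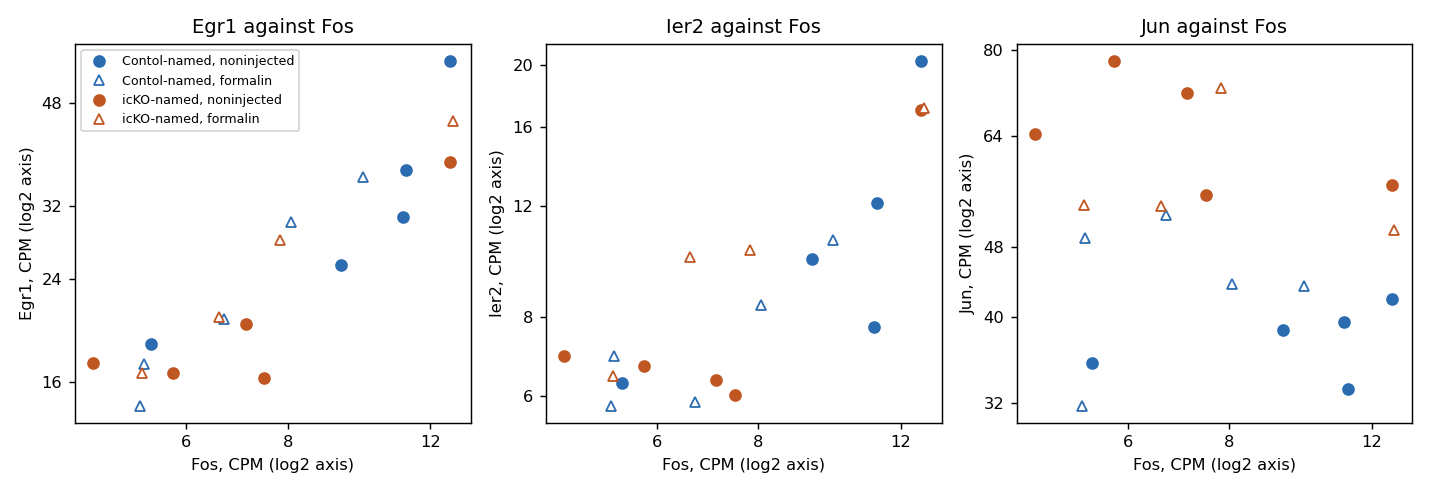
CPM of Egr1, Ier2 and Jun against CPM of Fos (log2 axes), 1 point per library, circles noninjected and triangles formalin, blue Contol-named and orange icKO-named. Egr1 and Ier2 rise with Fos (r = 0.89 and 0.80 noninjected), and Jun does not (r = -0.46 noninjected and 0.17 with formalin).

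Both libraries of an animal were also set against each other, over 9 animals and 30 members. The order of animals in Dusp1 was alike in both sets, with r = 0.94 between noninjected and formalin log2 CPM (exact permutation p = 0.000138, adjusted p = 0.00413; rho 0.93, exact permutation p = 0.00075, adjusted p = 0.0225; r = 0.99 without the 2 farthest animals). Its noninjected levels were 35.5, 23.9, 26.9, 38.7 and 20.7 CPM in control 1 to 5 and 36.1, 25.5, 36.9 and 30.8 CPM in icKO 2 to 5. Both name groups were pooled for r. Mean Dusp1 was higher in icKO-named than in Contol-named libraries, at 34.7 against 26.6 CPM over all 10 noninjected libraries and 29.9 against 22.6 CPM with formalin. The part of this group difference in r was not tested. Nr4a1 had r = 0.88 (exact permutation p = 0.00196, adjusted p = 0.0294; rho 0.67, exact permutation p = 0.0589, adjusted p = 0.399), which fell to 0.65 without 2 animals. The median r over the 30 members was 0.38.

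By sex, over animal totals, 0 of 32 members passed, where 13 of 18787 genes did (0.0692%; DESeq2 called 172). At an unadjusted p under 0.05 there were 7 members higher in males and 0 lower, against 6.93% of all genes higher: Ecel1 (log2 fold 1.08, SE 0.36), Ier2 (0.73, SE 0.25), Sox11 (0.39, SE 0.12), Atf3 (0.39, SE 0.13), Bdnf (0.38, SE 0.12), Gadd45a (0.26, SE 0.11) and Ier3 (0.23, SE 0.07). Their adjusted p in edgeR lay between 0.319 and 0.376. Gadd45a encodes a stress-induced regulator of the cell cycle. Macrophage markers were positive in 8 of 8 and skeletal muscle markers in 8 of 8 here; their part was not tested.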

How the data were processed

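Per the labels, polyA RNA of mouse dorsal root ganglia was sequenced with a non-stranded kit, so reads of a gene and its antisense partner cannot be told apart. The authors deposited raw counts per Ensembl gene. The submitters' processing notes name the GRCm39 build and, as tools, featureCounts 2.0.1, STAR 2.7.8a and bcl2fastq 2.20.0.422. Annotation release, strand setting and handling of multiply mapped reads: not given in the sources used here. A name table matched 52083 of 55416 IDs (94.0%), and all 36 members. Exon lengths came from GENCODE annotation of GRCm38.

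In R 4.3.3, edgeR 4.0.16 filtered genes by filterByExpr, scaled libraries by TMM and applied its robust quasi-likelihood F test to the counts, with Benjamini-Hochberg adjustment over all genes tested and a threshold of 0.05. Formalin was tested with the animal as a block, genotype and sex with each other as covariate, animals being the replicates. CPM are TMM-scaled, log2 CPM use a prior count of 0.5, and SE follow from the fold and F. Correlations used permutations (100000 with 10 animals, all 362880 orders with 9; Python 3.11.15, scipy 1.17.1). The tests were checked on simulated data.

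Pairing comes from the animal number in the deposited names; deviations of paired libraries from group means correlated at 0.10 to 0.38 over the 9 pairs. Between replicate libraries, chi-square per degree of freedom was 7.36 to 101, so none was a copy. Total counts set the precision of each library.

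The members, the lists of other genes and the markers were chosen with earlier results of these data known. All members may be named; values per sample are given for members past the threshold, for Fos, Egr1 and Atf3, and for up to 4 per comparison otherwise; of other genes, at most 5 past the threshold per direction, otherwise those of smallest p. The mapping of genotype follows the deposited names; alternatives were grouping by title, the 6 agreeing animals, DESeq2 1.42.0, limma 3.58.1 with voom, RLE scaling, no filter, no covariate, other blocks and leaving out each animal. A fit without the icKO 5 formalin library was added after the data were seen. The icKO 1 formalin library, under 1000000 counts, was left out.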

Additional observations from a re-analysis of the deposited data

Results flagged for a closer look

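In 128 groups of 4 or 5 libraries (1 gene, 1 name group, 1 agent), 7 held a library far from the others by a gap test at its 95% level, which chance meets in about 1 of 20 groups. Of these, 4 were the noninjected library of control 4, which has the icKO word in its deposited name: Egr1 at 38.1 CPM (next 20.1), Ier2 at 17 CPM (next 6.94), Junb at 29.9 CPM (next 17.2) and Il6 at 0 CPM (next 0.161). Control 5, Contol-named, had Egr3 at 13.3 CPM noninjected (next 7.13) and Npy at 0 CPM with formalin (next 0.349). The icKO 5 formalin library had Sox11 at 21.4 CPM (next 12.8), and this library also held the most skeletal muscle and fibroblast transcripts.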

How the results depend on the processing

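Counts of called genes depended on the settings. DESeq2 called 1 gene for formalin over all animals, 49 in Contol-named and 263 in icKO-named animals and 774 for the difference between them; for genotype it called 804 over totals, 2055 noninjected and 640 with formalin, and 172 for sex. Without a filter the same counts were 2, 573, 1587, 2322, 1811, 2545, 660 and 932, of many more genes tested. Grouped by title, 0 genes were called over totals, noninjected or with formalin. The 6 agreeing animals gave 1035 genes with formalin, no sex covariate 165, and leaving out the icKO 5 formalin library 342 over totals. With formalin libraries in place of noninjected ones, 2 genes rather than 1 correlated with Fos.

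Leaving out 1 animal gave 0 to 0 genes for formalin over all animals, 0 to 3 in Contol-named, 0 to 1992 in icKO-named animals and 0 to 2524 for their difference, both maxima without control 1. For genotype it gave 78 to 282 over totals, 184 to 2050 noninjected and 13 to 683 with formalin, and 11 to 16 for sex. The lowest of these came without control 3 (totals and noninjected) or control 5 (formalin).

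The title numbers pair no animals across genotypes. With them as replicate block, grouped by title, 1 gene was called over totals, 0 noninjected and 0 with formalin. Without the animal block, the 4 formalin comparisons called 0 genes, as with it and with limma and voom.

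Over 244 pairs of member and comparison, 3815 alternative values gave 0 reversed calls, 21 lost and 85 gained ones, 43 of the gains without a filter, 20 without control 1 and 12 with DESeq2. The sign differed in 263 values while uncalled. Members under 1 CPM, such as Ecel1 and Sprr1a, had few counts per library, and their folds are the least precise.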
